A study of Mus musculus with 3 samples.

Results

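The lymphotoxin β receptor and the noncanonical NF-κB pathway behind it were examined gene by gene in single cells of Peyer's patch (PP). The 9 genes were taken by symbol from the gene lists of the 3 libraries, out of 31053 genes that all libraries list. They comprise the ligands Ltb, Tnfsf13b and Tnfsf11, the receptors Ltbr and Tnfrsf1a, the adaptor Traf3, the kinase Map3k14 and the NF-κB subunits Relb and Nfkb2. The control library is labelled WT and comes from C57BL/6 mice. The libraries COUPOE 1 and COUPOE 2 are labelled replicates of CDH5(PAC)CreERT2;COUP-TFIIOE/OE, in which tamoxifen activates Cre in cells that use the Cdh5 promoter, and Cre switches on a COUP-TFII (Nr2f2) transgene in endothelium. Mice were 6 to 10 weeks old, blood endothelial cells (EC) were isolated 14 to 19 days after tamoxifen, and male and female cohorts were processed together. The study's methods give days after tamoxifen for control mice too and describe controls as littermates without Cre. Its results, however, name WT mice beside tamoxifen-treated Cre-negative controls. Whether the WT mice of this library received tamoxifen or were littermates is therefore not clear. Genotype cannot be told apart from such differences here. The labels do not give the number of mice or the day for each library. With 1 control library, p-values measure the spread between these samples only, which may be technical.

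High endothelial venules, the vessels through which lymphocytes enter PP, depend on lymphotoxin. Lymphocytes carry lymphotoxin α and β on their surface, and the receptor LTβR on stromal and endothelial cells answers through a slow branch of NF-κB signalling. In a resting cell the adaptor TRAF3 keeps the kinase NIK (Map3k14) scarce. When LTβR, RANK, CD40 or the BAFF receptor is engaged, NIK accumulates and the p100 protein made from Nfkb2 is cut to p52, which enters the nucleus with RelB. In fibroblastic reticular cells (FRC) the same receptor supports the chemokines and survival factors of lymphoid tissue.

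On GRCm38 the genes lie at chr6:125306571-125313885 (Ltbr, minus strand), chr17:35194439-35196320 (Ltb, plus), chr7:19606217-19629438 (Relb, minus), chr19:46304320-46312385 (Nfkb2, plus), chr11:103219762-103267472 (Map3k14, minus), chr12:111166370-111267153 (Traf3, plus), chr6:125349362-125362484 (Tnfrsf1a, plus), chr8:10006467-10039072 (Tnfsf13b, plus) and chr14:78277445-78308043 (Tnfsf11, minus). All are annotated as protein coding.

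Promoter sequences were searched for NF-κB motifs, since Nfkb2 and Relb products bind DNA. RefSeq promoter windows on GRCm38.p6 cover 250 bases before and 50 bases after a transcription start, and 8 of the 9 genes had at least 1 window (Relb had none). The κB consensus, a 10-letter motif searched on both strands, was found in windows of 3 of these 8 genes, Ltb, Nfkb2 and Traf3, and of 5.14% of 27025 genes (4.51% of 32851 windows). The COUP-TF half-site AGGTCA, also searched on both strands, was found for 0 of the 8 genes and for 18.1% of all genes (16.3% of windows). The paper screened with a shorter COUP-TFII motif, GGTCA or GGTCG, and its Madcam1 half-sites differ from AGGTCA. Those forms were not counted here. GGTCG does occur, for example in the Map3k14 window and, on the opposite strand, in an Nfkb2 window. The count of 0 therefore holds for AGGTCA only and leaves other COUP-TFII sites untested. These are matches of letters and not measured binding. The windows with a match are shown because Ltb and Nfkb2 are the members that separated HEC from capillary EC below, with the κB match in capitals and overlapping matches merged.
Ltb, chr17:35194257-35194556, plus strand: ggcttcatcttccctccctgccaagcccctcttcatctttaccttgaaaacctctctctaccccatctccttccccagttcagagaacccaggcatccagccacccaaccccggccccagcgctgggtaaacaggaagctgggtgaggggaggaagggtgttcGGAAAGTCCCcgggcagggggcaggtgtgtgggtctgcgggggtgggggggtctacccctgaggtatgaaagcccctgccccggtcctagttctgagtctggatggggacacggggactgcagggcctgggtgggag
Nfkb2, chr19:46304487-46304786, plus strand: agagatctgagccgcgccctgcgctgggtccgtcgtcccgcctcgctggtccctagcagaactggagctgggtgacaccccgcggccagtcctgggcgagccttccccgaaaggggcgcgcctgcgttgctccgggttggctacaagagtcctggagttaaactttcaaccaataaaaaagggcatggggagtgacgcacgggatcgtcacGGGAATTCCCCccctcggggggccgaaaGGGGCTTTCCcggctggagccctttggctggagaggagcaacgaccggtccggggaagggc
Nfkb2, chr19:46305445-46305744, plus strand: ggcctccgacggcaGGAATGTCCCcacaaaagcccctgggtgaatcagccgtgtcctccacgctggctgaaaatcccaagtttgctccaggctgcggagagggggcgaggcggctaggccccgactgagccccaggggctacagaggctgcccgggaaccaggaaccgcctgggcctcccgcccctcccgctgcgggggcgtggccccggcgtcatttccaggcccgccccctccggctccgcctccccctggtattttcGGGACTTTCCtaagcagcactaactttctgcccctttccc
Traf3, chr12:111166120-111166419, plus strand: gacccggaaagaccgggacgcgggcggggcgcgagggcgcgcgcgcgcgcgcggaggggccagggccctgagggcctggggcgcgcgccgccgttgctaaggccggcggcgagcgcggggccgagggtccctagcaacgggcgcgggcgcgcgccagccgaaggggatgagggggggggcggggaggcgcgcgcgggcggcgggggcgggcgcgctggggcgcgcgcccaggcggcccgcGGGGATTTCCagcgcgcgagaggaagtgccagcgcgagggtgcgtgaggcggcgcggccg
The Ltb match GGAAAGTCCC starts 87 bases before the transcription start and the Traf3 match GGGGATTTCC starts 10 bases before it. The first Nfkb2 window holds matches that start 39 and 11 bases before its transcription start, and the second holds one 236 bases before and one 10 bases after. A further Nfkb2 window overlaps the second one and holds the same GGGACTTTCC.

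Libraries differed in the cells they held, and that sets which comparisons are possible. After quality control 5341, 4704 and 1239 cells remained in the control, COUPOE 1 and COUPOE 2 libraries, of which blood EC made up 44.8%, 71.1% and 77.1%, although all 3 are labelled blood endothelium. Fibroblasts numbered 2484 in the control library and 8 and 4 in the COUPOE libraries. Lymphatic EC (LEC) numbered 7 in the control library and 921 and 127 in the COUPOE libraries. Fibroblast values therefore come from the control library and LEC values from the COUPOE libraries, so these cannot be set against each other within 1 library. The control and COUPOE 2 libraries shared 12 cell barcodes, and the other pairs shared 0. COUPOE 1 also stood apart in its header, which names Cell Ranger 3.1.0 against 3.0.2, and in its 31053 listed genes against 31055. The part of this difference in the values below was not tested. COUPOE 2 was the shallow library, with 3548983 unique molecular identifiers (UMIs) against 17341398 and 17417260. The targeted gene followed the labels: Nr2f2 stood at 118, 1726 and 1176 CPM (the usual scaled count, a gene's UMIs over all UMIs of that cell type in that library) in blood EC. It was also higher in the COUPOE libraries among cells classed as pericytes, at 267, 1236 and 635 CPM, so the rise was not seen in endothelial classes alone.

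Cells were grouped by clustering without the 9 genes and the pathway lists, and named by marker genes. Blood EC gave high EC (HEC, 370, 80 and 2 cells), postcapillary venule EC (PCV, 388, 765 and 92), capillary EC (CapEC, 184, 965 and 385), capillary resident progenitors (CRP, 123, 109 and 36) and arterial EC (288, 672 and 175). The 6 CRP markers summed to 363, 1318 and 1690 CPM in CRP and to 541, 196 and 352 CPM in CapEC, so in the control library they do not set CRP apart. Of the other blood EC 4 clusters matched no marker list well enough to be named. One with 142, 484 and 26 cells is called the Colec12 cluster after its leading gene, a scavenger receptor. The others, led by Scgb3a1 and Prom1 (372, 153 and 143 cells), Hba-a2 and Hba-a1 (396, 29 and 28) and Bmp2 and Pi16 (129, 86 and 68), were nearest to the capillary list, the capillary list and the arterial list. They hold many of the control blood EC and enter the blood EC totals but none of the named types. In the Colec12 cluster the addressin transcript Madcam1 stood at 11039, 6621 and 7477 CPM, beside 12654 and 9196 CPM in HEC of the control and COUPOE 1 libraries. Control and COUPOE CapEC were mostly assigned to separate clusters: 109 and 64 of the 184 control cells fell in clusters with 127 and 17 COUPOE 1 cells, whereas 515 and 306 COUPOE 1 cells fell in clusters with 8 and 3 control cells. Arterial EC were divided likewise: 280 control cells fell in a cluster with 87 and 32 COUPOE cells, and 585 and 143 COUPOE cells in a cluster with 8 control cells. Arterial markers summed to 4830, 2313 and 2044 CPM in that class. Its 7 capillary markers summed to 3553, 6502.5 and 6005 CPM, beside 7815, 6839 and 7273 CPM in CapEC. The capillary sum was thus the larger one in the COUPOE libraries, and COUPOE arterial values below carry that limit. The study could identify mature Gkn3+ arterial EC in its WT cohort only. Across all kept cells Tnfrsf1a gave 9844 UMIs, Relb 3172, Ltbr 1790, Nfkb2 1733, Tnfsf13b 1717, Ltb 1358, Map3k14 723, Traf3 463 and Tnfsf11 3. In all 8 genes passed the minimum of 20 UMIs, and Tnfsf11 did not. Levels are compared for each gene across cell types and never between genes, since 3′ counts carry no length scale. Intervals below are 95% intervals and cover counting error only.

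Ltb, the membrane anchor of the lymphotoxin heterotrimer, was detected in endothelium and was unevenly spread over it. HEC carried 61.9 CPM in the control library (172 UMIs, interval 53.0 to 71.8) and 41.8 CPM in COUPOE 1 (27 UMIs, interval 27.5 to 60.8). Arterial EC carried 0 UMIs in all 3 libraries. CapEC stood at 14.5, 7.68 and 5.44 CPM in the control, COUPOE 1 and COUPOE 2 libraries, and the 5 control UMIs came from 1 cell. PCV stood at 0.836, 10.97 and 11.2 CPM, the control value resting on 1 UMI. High EC thus lay above arterial, venular and capillary EC in both libraries that held enough of them, with intervals that did not overlap.

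Ltb was high in the Colec12 cluster and LEC of COUPOE 1. The Colec12 cluster held 2 UMIs in 142 control cells (2.42 CPM), 583 UMIs in 484 COUPOE 1 cells (215 CPM) and 6 UMIs in 26 COUPOE 2 cells (63.8 CPM). Ltb was a leading gene of that cluster, although it was not used to build it. In LEC Ltb reached 97.0 CPM in COUPOE 1 (231 UMIs) and 27.3 CPM in COUPOE 2 (8 UMIs), and the 7 control LEC were too few for a level. CRP stood at 30.9, 105 and 225 CPM. A small cluster nearest to the lymphocyte list held Ltb at 728 CPM in 19 control cells and 320 CPM in 31 COUPOE 1 cells. It is left unnamed, because Prss34, Mcpt8, Mcpt1 and Cpa3, genes of mast cells and basophils, stood among its 10 leading genes beside immunoglobulin genes, and none of the lymphocyte markers did. Its myeloid markers summed to 446 and 3010 CPM and its lymphocyte markers to 4627 and 986 CPM. The few cells classed as epithelial held 48.0, 45.2 and 15.3 CPM. That class also held endothelial RNA, with HEC markers at 29149 CPM in the control library and capillary markers at 3712 CPM in COUPOE 1. Its Ltb is therefore not assigned to epithelial cells.

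Lymphocyte RNA was measured beside each Ltb value as the sum of 9 lymphocyte markers, such as Ptprc, Cd52 and Cd3e. HEC held 5.06 and 2.70 Ltb UMIs per marker UMI in the control and COUPOE 1 libraries, the Colec12 cluster 53 in COUPOE 1 and 6 in COUPOE 2, and LEC 46.2 and 4. The COUPOE 2 values rest on 1 and 2 marker UMIs. The cluster led by Prss34, which also held genes of mast cells and basophils, stood at 0.157 and 0.325 in the control and COUPOE 1 libraries. The part of lymphocyte RNA in these Ltb levels was not tested. FRC held 1.19 and lamina propria fibroblasts 0.125, both in the control library. Lta, the partner of Ltb in the heterotrimer, had 0 UMIs in blood EC, LEC and fibroblasts of every library.

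**Figure D1:**
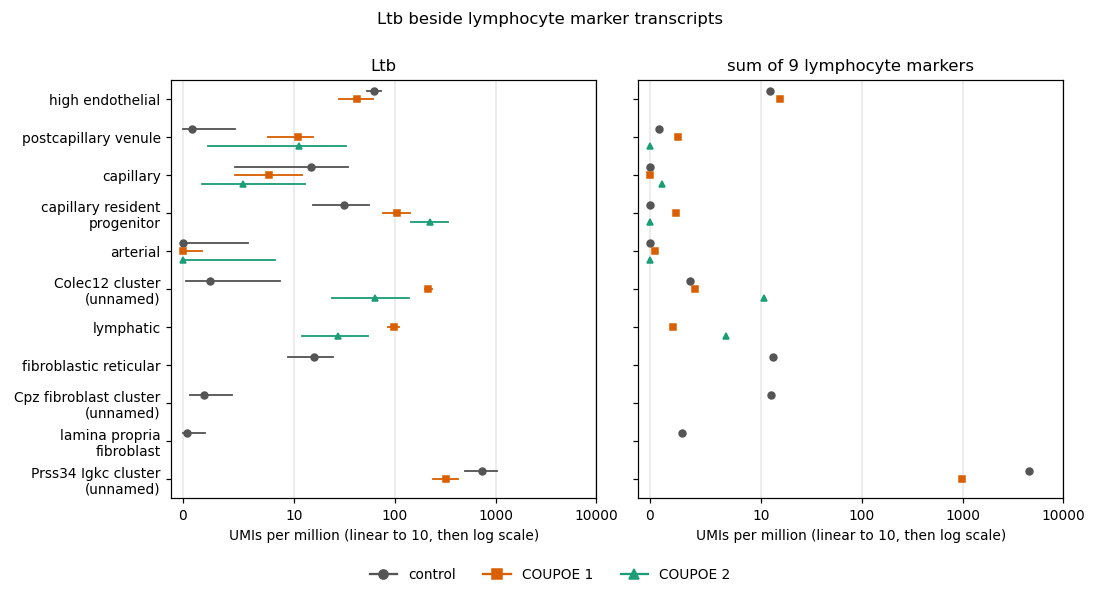
Level of Ltb (left) and of 9 summed lymphocyte markers (right) by cell type, in CPM on an axis that is linear to 10 and logarithmic above. Symbols are libraries and bars on the left are 95% Poisson intervals. Ltb of HEC, LEC, CRP and the COUPOE Colec12 cluster lies above 10 CPM, and arterial EC lie at 0. The part of lymphocyte RNA in these levels was not tested. The lowest line is the unnamed cluster led by Prss34 and Igkc.

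Tnfsf13b encodes BAFF, the survival factor of B cells, and was a fibroblast transcript in these libraries. FRC of the control library carried 665 UMIs (547 CPM, interval 506 to 590). The unnamed fibroblast cluster led by Cpz, Chodl and Ackr4 carried 722 UMIs (275 CPM, interval 255 to 296), and lamina propria fibroblasts carried 277 UMIs (100.2 CPM, interval 88.7 to 113). Subepithelial fibroblasts (67.1 CPM) and adventitial fibroblasts (36.2 CPM) stood lowest, with overlapping intervals. The first 3 types were ordered without overlap of intervals. After thinning each cell to 1000 UMIs, 43.5% of FRC held a Tnfsf13b UMI (79.0% before thinning, median depth 3785 UMIs), against 18.8% of the Cpz cluster and 7.77% of lamina propria fibroblasts. The share in blood EC of the same library was 0.0418% (median depth 2180.5 UMIs). Blood EC held 4, 2 and 1 UMIs in all.

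Tnfsf11, which encodes RANKL, was close to absent at this depth. Its 3 UMIs fell in FRC, lamina propria fibroblasts and subepithelial fibroblasts, 1 UMI each, all in the control library. Blood EC held it in 0 of 2392, 3343 and 955 cells, which allows shares of cells with a UMI of up to 0.125%, 0.0897% and 0.314%. Its receptor Tnfrsf11a (RANK), in contrast, was measured in EC.

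Ltbr, the receptor for the lymphotoxin heterotrimer, was present in every endothelial and fibroblast type, and HEC did not carry the most. Control levels were 84.5 CPM in PCV, 83.9 in CapEC, 78.7 in CRP, 61.7 in arterial EC, 50.8 in the Colec12 cluster and 39.6 in HEC. COUPOE 1 levels were 49.5 in PCV, 52.3 in CapEC, 35.1 in CRP, 47.0 in arterial EC, 42.4 in the Colec12 cluster and 26.3 in HEC. HEC stood lowest of these types in both libraries on this scale. Their cells were also deep, with a control median of 7542 UMIs against 1671 in CapEC. Control HEC held 110 Ltbr UMIs in 370 cells against 29 in 184 CapEC. In COUPOE 1 they held 17 in 80 cells against 136 in 965. Levels per cell were not ranked. The control HEC interval of 32.5 to 47.7 CPM did not overlap those of PCV (68.8 to 103) and CapEC (56.2 to 120), whereas it overlapped that of arterial EC. LEC stood at 24.8 CPM in COUPOE 1 (interval 18.9 to 32.0), which overlapped HEC, and at 10.2 CPM on 3 UMIs in COUPOE 2. Fibroblast types ranged from 50.2 CPM in FRC to 71.3 CPM in subepithelial fibroblasts, with overlapping intervals.

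Tnfrsf1a, the receptor for TNF, split lymphatic from blood endothelium. LEC stood at 101 CPM in COUPOE 1 and 64.9 CPM in COUPOE 2, against 330 and 267 CPM in blood EC of the same libraries. In the control library PCV held 411 CPM, above 248 in HEC, 250 in arterial EC and 202 in CapEC, and the PCV interval of 376 to 449 CPM overlapped none of these. In the COUPOE libraries CapEC stood at 410 and 342 CPM beside 383 and 254 CPM in PCV.

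Map3k14, which encodes the NIK kinase, and Traf3, the adaptor that limits it, were low throughout. Map3k14 ranged over the endothelial types described here from 10.1 CPM in control HEC (28 UMIs) to 44.9 CPM in COUPOE 2 PCV (12 UMIs). HEC were below CapEC in the control library, at 10.1 against 31.8 CPM, and their intervals in COUPOE 1 overlapped. Traf3 ranged from 2.89 CPM in control CapEC, on 1 UMI, to 20.1 CPM in COUPOE 1 HEC. Intervals of neighbouring types overlapped for both genes.

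Relb and Nfkb2, the subunits of the p52 and RelB dimer, were high in the same types of the control library. Relb stood at 143 CPM in control HEC (interval 130 to 158), 155 in CRP, 136 in the Colec12 cluster, 100.4 in PCV, 80.6 in arterial EC and 63.6 in CapEC. In COUPOE 1 it stood at 125 CPM in HEC, 115 in CRP, 157 in the Colec12 cluster, 83.4 in PCV, 69.3 in arterial EC and 70.3 in CapEC. Nfkb2 stood at 88.8 CPM in control HEC (interval 78.1 to 101), 104 in CRP, 99.2 in the Colec12 cluster, 67.7 in PCV, 38.0 in arterial EC and 26.0 in CapEC. Of these types HEC, CRP and the Colec12 cluster were the high group of the control library for both genes, with overlapping intervals, and CapEC were lowest. The unnamed cluster led by Bmp2 and Pi16 stood at 118 CPM for Relb and 76.3 CPM for Nfkb2 there, and its intervals overlapped the high group. PCV intervals overlapped some of the high group. In COUPOE 1 Nfkb2 stood at 92.8 CPM in HEC and 86.7 in the Colec12 cluster, but at 39.8 in CRP, 35.1 in PCV, 28.0 in CapEC and 23.7 in arterial EC. The 2 high values did not overlap the others. Over 7 named cell types with at least 20 cells in both libraries, Pearson's r between Relb and Nfkb2 on a log2(CPM + 10) scale was 0.956 in the control library and 0.875 in COUPOE 1. The 7 types include pericytes and the class called epithelial, which also held endothelial RNA. The points share library and depth, and the values are a description.

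**Figure D2:**
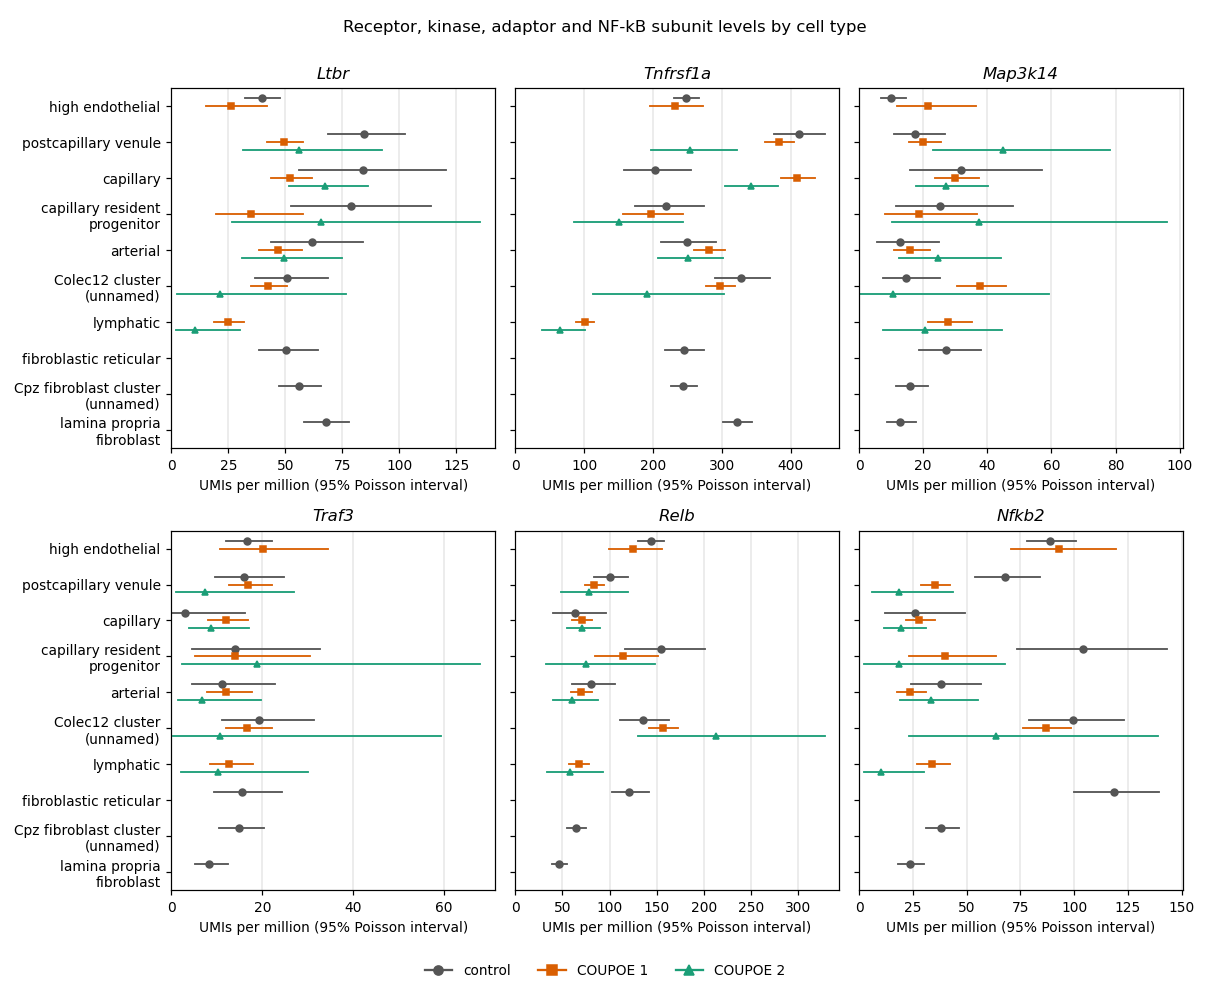
Levels of the receptors, kinase, adaptor and NF-κB subunits by cell type, in CPM with 95% Poisson intervals, each symbol being a library. Nfkb2 and Relb are high in HEC, the Colec12 cluster and FRC, Ltbr is low in LEC and HEC, and Tnfrsf1a is low in LEC.

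Which genes rank like each member was asked over the same 7 types, taking the smaller r of the control library and COUPOE 1 over 7480 genes. Ralgds, Rgs19 and Marc2 were closest to Relb (control r 0.954, 0.923 and 0.922). Il2rg, Pdlim1 and Csf2rb were closest to Nfkb2 (0.940, 0.931 and 0.939). Bcl3, itself a nuclear partner of p52, was closest to Traf3 (0.983), Noct to Ltb (0.939), Hdac7 to Map3k14 (0.892) and Rpap3 to Tnfrsf1a (0.911). An unnamed transcript, 9530082P21Rik, was closest to Ltbr (0.967). Tnfsf13b and Tnfsf11 had too few UMIs in COUPOE 1 for this. All r printed here are those of the control library. Each gene is a best match out of 7480 over 7 types, so high values are expected by selection alone. Traf3 rests on 1 UMI each in control CapEC and pericytes.

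Whether HEC differ from CapEC in the pathway was asked within each library, with a gene counted as different when it was at least 2-fold higher, or lower, in every library with 10 cells of both types. Clusters are built from the same cells, so these are descriptions without a test. In the control and COUPOE 1 libraries Ltb and Nfkb2 were higher in HEC. Ltb was 4.28-fold and 5.43-fold higher, with counting intervals of 1.80 to 13.3 and 2.94 to 10.2. Nfkb2 was 3.41-fold and 3.31-fold higher, with intervals of 1.77 to 7.55 and 2.31 to 4.72. Relb was 2.26-fold and 1.78-fold higher and missed the rule in COUPOE 1. Ltbr went the other way, 2.12-fold and 1.99-fold lower in HEC, and missed it likewise.
By this rule 4.53% of 10151 genes were higher in HEC and 11.8% lower, against 2 higher and 0 lower of the 7 members with enough UMIs. The median log2 ratio was 1.00 over these 7 members and -0.42 over all genes. Markers of lymphocytes stood at 12.2 and 15.5 CPM in HEC and at 0 in CapEC of these libraries. Their part in the Nfkb2 ratio was not tested.

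Of the other pathway genes, 3 of 10 adaptors were higher in HEC and 0 lower. Birc2, the ubiquitin ligase that marks NIK for decay together with TRAF3, stood at 113 against 20.2 CPM in the control library and at 190 against 48.4 CPM in COUPOE 1. Traf1 was 3.94-fold and 2.70-fold higher, and Tnfaip3, the A20 brake on NF-κB, 3.70-fold and 3.69-fold higher. Among the 8 factors only Rel (c-Rel) passed the rule, and it was lower in HEC, at 4.68 against 23.1 CPM and 3.09 against 23.4 CPM. None of the 3 kinases, of the 4 measured receptors or of the 1 measured ligand passed. Of the 7 targets, 4 had enough UMIs, and Madcam1, Glycam1 and Vcam1 were higher. Glycam1 is one of the markers that named HEC, so its difference is no result.

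PCV and CapEC did not differ by the 2-fold rule in any member. Of 10657 genes 2.36% were higher in PCV and 2.34% lower in all 3 libraries. Tnfrsf1a was 2.03-fold higher in PCV in the control library but 1.07-fold and 1.34-fold lower in COUPOE 1 and 2. Nfkb2 was 2.60-fold higher in the control library, 1.25-fold higher in COUPOE 1 and 1.05-fold lower in COUPOE 2. Tnfaip3 passed in all 3 libraries, 4.48-fold, 2.69-fold and 2.21-fold higher in PCV, as did Vcam1, which binds integrin α4β1 on lymphocytes.

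HEC were set against PCV as well, a pair added after the data were seen, because both are venous. Ltb was the member that differed, with 172 against 1 UMIs in the control library and 3.81-fold in COUPOE 1 (interval 2.22 to 6.47). By the same rule 3.58% of 10439 genes were higher in HEC and 10.3% lower. Nfkb2 was 1.31-fold and 2.64-fold higher and Relb 1.43-fold and 1.502-fold higher in HEC, neither passing in both libraries. Birc2 and Nfkbie were higher in HEC, whereas the canonical subunits Nfkb1 (2.13-fold and 2.22-fold) and Rel (4.11-fold and 5.78-fold) were lower, as were Nfkbiz and Tnfrsf1b, the second TNF receptor.

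LEC differed from blood EC in Tnfrsf1a, which was 3.28-fold lower in COUPOE 1 and 4.11-fold lower in COUPOE 2. This was the only one of 7 measured members to pass, and 8.1% of 11831 genes were higher in LEC and 9.97% lower. Ltb was 1.68-fold and 1.66-fold higher in LEC, short of 2-fold. The blood EC value rests on small classes: the Colec12 cluster held 583 of 711 UMIs in COUPOE 1, and CRP 24 of 38 in COUPOE 2. LEC, at 97.0 and 27.3 CPM, stood above CapEC (7.68 and 5.44), PCV (10.97 and 11.2) and arterial EC (0 and 0). They stood below the Colec12 cluster (215 and 63.8) and CRP (105 and 225). Ltbr was 1.84-fold and 5.78-fold lower, the larger value resting on 3 UMIs. Among other genes the RANK receptor Tnfrsf11a was higher in LEC, at 60.9 and 41.0 against 22.6 and 16.9 CPM. Ripk1 and Tnfaip3, which act below the TNF receptor, were lower, as were Nfkbiz, the inhibitor Nfkbia and the cofactor Bcl3, 3 of 8 factors. Of the targets Icam1, Madcam1 and Glycam1 were lower.

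**Figure D3:**
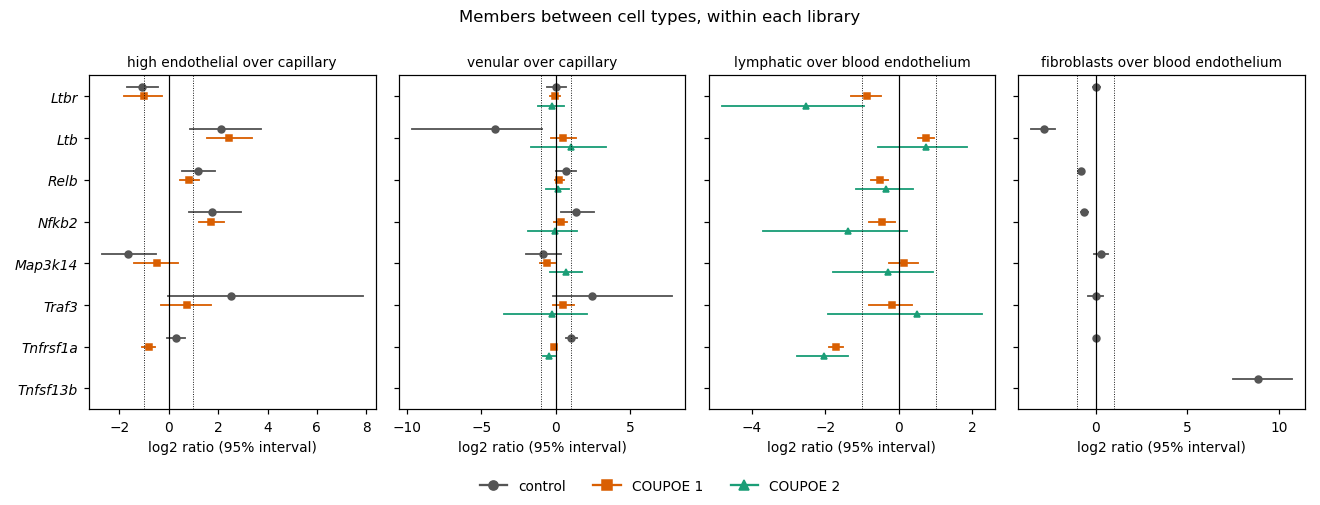
Log2 ratio of each member between cell types within a library, with 95% counting intervals and dotted lines at 2-fold. Ltb and Nfkb2 lie beyond 2-fold in both libraries for HEC over CapEC, Tnfrsf1a in both for LEC over blood EC, and Tnfsf13b far to the right for fibroblasts.

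Fibroblasts and blood EC could be compared in the control library only, so there is no replicate. Tnfsf13b was 454-fold higher in fibroblasts (1693 against 4 UMIs, interval 177 to 1669), and Ltb was 7.19-fold lower (a ratio of 0.139, interval 0.0878 to 0.211). The Ltb ratio reflects HEC, which held 172 of the 193 Ltb UMIs of control blood EC. Fibroblasts at 3.47 CPM stood above PCV (0.836 CPM) and arterial EC (0 UMIs), and below CapEC (14.5 CPM) and CRP (30.9 CPM). The 6 other measured members were within 2-fold. Ltbr (60.1 against 59.0 CPM) and Tnfrsf1a (277 against 276 CPM) were close in level, with intervals of the ratio of 0.891 to 1.16 and 0.942 to 1.07. By the same rule 19.8% of 12207 genes were higher in fibroblasts and 14.6% lower. The chemokines Ccl19 and Cxcl13, Vcam1, the receptor Cd40 and Tnfrsf11b, the decoy for RANKL, were higher. Tnfrsf11a, Traf1, Bcl3, Madcam1 and Glycam1 were lower.

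Among fibroblasts, FRC carried most Nfkb2, Relb and Tnfsf13b. They were compared with lamina propria fibroblasts, a pair added after the data were seen and present in the control library only. Nfkb2 was 5.04-fold higher in FRC (118 against 23.5 CPM, interval 3.73 to 6.86), and Relb 2.61-fold higher (121 against 46.3 CPM, interval 2.05 to 3.34). Tnfsf13b was 5.46-fold higher (interval 4.74 to 6.30) and Map3k14 2.14-fold higher (27.1 against 12.7 CPM, interval 1.29 to 3.55). Ltb, with 19 against 1 UMIs, also passed the rule and stood beside 16 and 8 lymphocyte-marker UMIs, and the part of lymphocyte RNA in it was not tested.
Thus 5 of 8 measured members were higher in FRC and 0 lower, where 6.33% of 9979 genes were higher and 13.0% lower. The median log2 ratio was 1.24 over the 8 members and -0.19 over all genes.

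Pathway genes outside the 9 were counted by the same rule. Of 10 adaptors 5 were higher in FRC and 0 lower: Birc2 stood at 173 against 38.3 CPM, Birc3 at 172 against 79.2, Tnfaip3 at 81.4 against 12.7 and Traf1 at 43.6 against 1.81. Of 8 factors 4 were higher: Nfkbiz, the inhibitors Nfkbia (1234 against 497 CPM) and Nfkbie, and the cofactor Bcl3. The canonical subunits did not pass: Nfkb1 was 55.9 against 50.6 CPM and Rela 46.9 against 49.6 CPM. Ccl19, a chemokine of the T zone and one of the genes that named the cluster, stood at 3035 against 6.15 CPM. Cxcl13, the B zone chemokine, was a naming marker too and stood at 328 against 395 CPM.

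**Figure D4:**
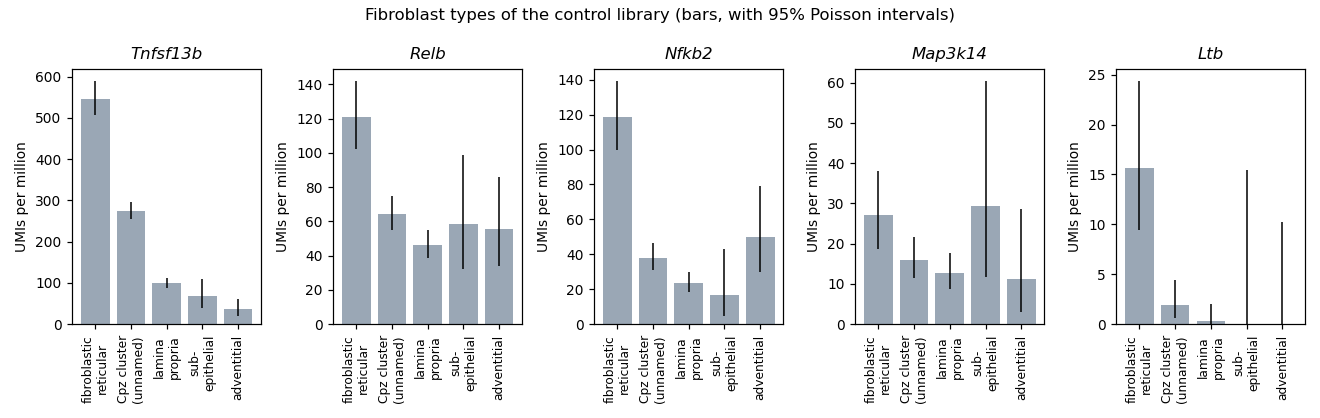
Levels of 5 members in the 5 fibroblast types of the control library, as bars from 0 in CPM with 95% Poisson intervals. FRC stand above the other types for Tnfsf13b, Relb and Nfkb2, while intervals overlap more for Map3k14 and Ltb.

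Which members change when COUP-TFII is overexpressed was tested with edgeR on UMIs summed per library and cell type, 2 COUPOE libraries against 1 control library. This leaves 1 residual degree of freedom, and the control library is assumed to vary as the COUPOE libraries do. HEC (2 cells in COUPOE 2), LEC (7 in the control library) and fibroblasts (8 and 4 in the COUPOE libraries) were too few for a fit. In CapEC 0 of 8680 genes passed an adjusted p below 0.05 (0.0% of genes, with 777 at an unadjusted p below 0.05 and 49 called by DESeq2). In PCV 57 of 9117 genes passed (0.625%), in the Colec12 cluster 146 of 8158 (1.79%) and in CRP 124 of 5831 (2.13%). The last 2 comparisons were added after the clusters were seen. Nr2f2 itself was not called in this CapEC fit, although it stood at 26.0, 2165 and 1367 CPM there.

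Ltb rose in the Colec12 cluster, by 5.83 on the log2 scale (SE 0.85), with an adjusted p of 3.85e-09 by edgeR's quasi-likelihood test with Benjamini-Hochberg adjustment. The rise was present in both COUPOE libraries, at 88.9-fold (interval 24.5 to 735) and 26.4-fold (interval 4.71 to 267) over 2 control UMIs. In COUPOE 1 it was spread over 189 of 484 cells (39.0%), with up to 24 UMIs in a cell. In COUPOE 2 it rests on 3 of 26 cells, and in the control library 2 of 142 cells held 1 UMI each. After thinning to 1000 UMIs a cell the shares were 0.704%, 15.9% and 7.69%, with Clopper-Pearson intervals of 0.0178 to 3.86, 12.8 to 19.5 and 0.946 to 25.1%. Arterial EC held 0 of 288, 672 and 175 cells with a UMI, which allows shares of up to 1.04%, 0.446% and 1.71%, a limit of 3 cells that applies to cells with a UMI at their lower depth. Median depths were 5377, 5036 and 3717.5 UMIs in the Colec12 cluster and 1843, 2820.5 and 2333 in arterial EC. The Colec12 comparison was added after the clusters were seen, with Ltb already among the leading genes of the cluster. That rank came from the COUPOE cells, with 583 and 6 UMIs against 2. The adjusted p-values of Ltb in this cluster are therefore no independent support.
Keeping doublets ended the call (log2 change 5.97, edgeR adjusted p = 0.0798). DESeq2 gave an adjusted p of 0.0143.

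Other markers also differed between libraries in that cluster. Of the 189 COUPOE 1 cells with Ltb, 7 held a UMI of a lymphocyte marker. Lyve1, a receptor of LEC, was in 50.8% of the cells with Ltb and in 27.5% of the others, and in COUPOE 2 in 33.3% and 30.4%. The 6 lymphatic markers summed to 10.9, 236 and 298 CPM in the cluster and to 10307.5 and 7892 CPM in LEC of COUPOE 1 and 2, with Prox1, the defining lymphatic factor, at 0 in COUPOE 2 and Pdpn at 0 in COUPOE 1. Glycam1, an HEC ligand for L-selectin, stood at 9480, 80.4 and 0 CPM in the cluster, while it lay between 106 and 217 CPM in control arterial EC, CapEC, PCV, FRC and lamina propria fibroblasts. Other control classes held more of the 5 HEC markers, Glycam1 among them. These summed to 2260 CPM in CRP, 1949 in pericytes and 29149 in cells classed as epithelial, beside 10821 in the Colec12 cluster. Whether control and COUPOE cells of the cluster are the same kind of cell was not tested, nor was the part of these markers in the rise.

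Ltb also passed in CRP, at a log2 change of 2.32 (SE 0.63, edgeR adjusted p = 0.0150), with levels of 30.9, 105 and 225 CPM. These rest on 11, 45 and 24 UMIs in 4, 23 and 6 cells. Beside them the CRP markers stood at 363, 1318 and 1690 CPM, the 6 lymphatic markers at 28.1, 208 and 207 CPM and the 9 pericyte markers at 33.7, 271 and 188 CPM, and their part in the Ltb change was not tested. The call was lost with DESeq2 (adjusted p = 1.00), at clustering resolutions 0.6 and 1.6 (0.687 and 0.408) and with doublets kept (0.571). In PCV, Ltb stood at 0.836, 10.97 and 11.2 CPM (log2 change 3.63, SE 1.48) and did not pass (edgeR adjusted p = 0.618). In CapEC both COUPOE libraries were below the control library, whose 5 UMIs came from 1 cell (edgeR adjusted p = 0.781).
Ltb was thus called in 2 of the 4 classes in which it was tested. Arterial EC and pericytes were fitted too, but Ltb had too few UMIs there. In HEC it stood at 61.9 CPM in the control library and 41.8 CPM in COUPOE 1, a ratio of 0.675 with an interval of 0.432 to 1.02.

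No other member passed in any class. In simulated counts of CapEC, PCV and the Colec12 cluster the fits missed most 2-fold changes, so a member not called may still differ. Ltbr was lower in both COUPOE libraries than in the control library in each of 6 classes (CapEC, PCV, CRP, arterial EC, the Colec12 cluster and pericytes), a pattern that 5.24% of 5377 genes shared. It was not lower throughout: over all blood EC it stood at 59.0, 45.5 and 59.2 CPM, and the unnamed clusters led by Hba-a2 (75.6, 84.7 and 77.1 CPM) and by Scgb3a1 (67.8, 32.6 and 68.0 CPM) did not show it. CapEC and arterial EC, as above, lay in different clusters by genotype. Its log2 changes in the 4 main classes ran from -0.39 in CapEC to -0.79 in CRP, with SE from 0.41 to 0.62 and edgeR adjusted p from 0.809 to 0.999, and all classes share the 1 control library. In PCV it went from 84.5 CPM to 49.5 and 56.1 CPM, and the intervals of the control library and COUPOE 2 overlapped.
Nfkb2 went from 67.7 CPM to 35.1 and 18.7 CPM in PCV (log2 change -1.12, SE 0.43, edgeR adjusted p = 0.515) and from 104 CPM to 39.8 and 18.8 CPM in CRP (-1.60, SE 0.61, edgeR adjusted p = 0.206). The COUPOE libraries were lower in both classes, and neither change passed. The direction was not particular to them: Nfkb2 was lower in both COUPOE libraries in 5 of 6 classes, with CapEC the exception. Pericytes stood at 34.9, 11.8 and 14.0 CPM and all blood EC at 70.6, 46.4 and 26.8 CPM. The share of all genes with this pattern was not counted. Tnfrsf1a in CapEC went from 202 CPM to 410 and 342 CPM (log2 change 0.99, SE 0.41, edgeR adjusted p = 0.557). The unnamed clusters nearest to the capillary list did not show this rise in both COUPOE libraries. Tnfrsf1a stood at 228, 264 and 227 CPM in the one led by Scgb3a1 and at 244, 339 and 206 CPM in the one led by Hba-a2. Relb, Map3k14 and Traf3 had log2 changes between -0.61 and 1.92 in the 4 main classes.

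**Figure D5:**
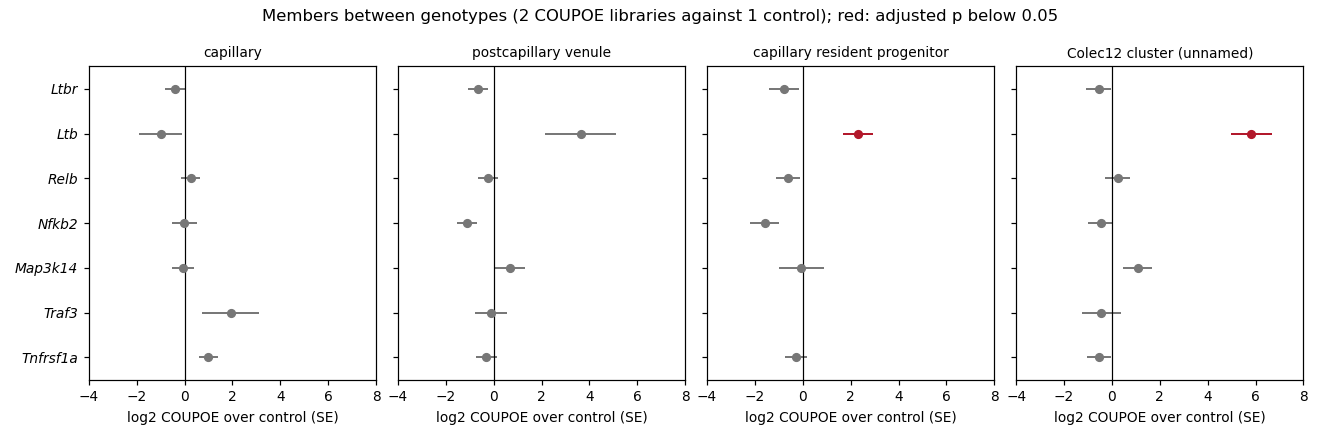
Log2 change of each member between genotypes (2 COUPOE libraries over 1 control library) with its standard error, in 4 endothelial classes. Points in red have an adjusted p below 0.05 by edgeR: Ltb in CRP and in the Colec12 cluster.

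Of the 41 other pathway genes 1 was called in PCV, CRP and the Colec12 cluster, and this was Glycam1, which fell in each. Its log2 changes were -6.93, -5.19 and -7.55 (edgeR adjusted p = 1.26e-05, 8.30e-17 and 9.96e-34). Glycam1 was also called lower in arterial EC and pericytes, with log2 changes of -8.22 and -10.8. Cxcl13 was called lower in pericytes as well (log2 change -7.13). Glycam1 stood at 83027 CPM in control HEC and 16974.5 CPM in HEC of COUPOE 1, and the part of HEC RNA in its fall elsewhere was not tested. The median log2 change over the measured members was -0.01, -0.25, -0.44 and -0.44 in CapEC, PCV, the Colec12 cluster and CRP, beside 0.05, 0.02, 0.03 and 0.01 over all genes.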

How the data were processed

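Peyer's patch endothelial preparations were profiled by droplet 3′ single-cell RNA-seq. Per the labels the authors aligned reads to mm10 and counted UMIs with Cell Ranger 3.0.2, whereas the header of COUPOE 1 names version 3.1.0. The deposited values are raw UMI counts per gene and cell. The members, lists and comparisons were chosen with earlier results of these data known. Cells were required to have 500 genes, 1000 UMIs and a mitochondrial share of no more than 10%, and Scrublet removed a further 132, 46 and 4 doublets (2.41%, 0.968% and 0.322%). Cells were integrated and clustered in 2 rounds in Seurat 5.3.0 (reciprocal PCA, 2000 variable genes without members and pathway genes, 30 components, 20 neighbours, resolution 1) and named by marker lists. UMIs were summed per library and class. CPM carry exact Poisson 95% intervals, ratios exact conditional intervals, and shares after thinning to 1000 UMIs Clopper-Pearson intervals. A class needed 10 cells and a gene 20 UMIs. Genotypes were compared with edgeR 4.0.16 (quasi-likelihood, TMM, Benjamini-Hochberg), with DESeq2 1.42.0 as an alternative. Genes named outside the members passed the stated rule, at most 4 per list in order of summed UMIs, with further ones named after their values were seen. Likeness used log2(CPM + 10) in types with 20 cells. Totals of 17341398, 17417260 and 3548983 UMIs set the precision. The fits were tried on counts simulated with a fixed spread between libraries. That spread was not estimated from these libraries, so the shares below hold for it only. They recovered 11.0% of 2-fold changes in CapEC, 27.8% in PCV and 26.0% in the Colec12 cluster. For 4-fold changes the shares were 84.5%, 94.1% and 91.5%. The lymphocyte markers are given as a sum, and 1 of them is not reported here by itself.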

Additional observations from a re-analysis of the deposited data

Results flagged for a closer look

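Some members moved in opposite directions in different classes of EC or mural cells, in both COUPOE libraries each time. With 1 control library these differences between classes were not tested, and all classes share that control library. For Ltb, the mean log2 ratio of the COUPOE libraries over the control library was 5.60 in the Colec12 cluster and -1.16 in CapEC, a difference of 6.76. The CapEC value rests on 5 control UMIs from 1 cell. It turned to 1.40 at clustering resolution 1.6 and to 0.71 when unnamed clusters joined their nearest list. For Traf3 the ratios were 1.82 in CapEC and -0.54 in the Colec12 cluster, a difference of 2.36, with 1 control UMI in CapEC. Tnfrsf1a stood at 0.89 in CapEC and -0.80 in pericytes, a difference of 1.69. In the unnamed clusters nearest to the capillary list its ratios in COUPOE 1 and 2 were 0.21 and -0.007 (led by Scgb3a1) and 0.47 and -0.25 (led by Hba-a2). Relb stood at 0.43 in the Colec12 cluster and -0.80 in pericytes, a difference of 1.23. Map3k14 stood at 0.77 in PCV and -0.16 in CapEC, a difference of 0.93. The CapEC change of Map3k14 was above 0 in 5 alternatives, at 0.39 to 0.52.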

How the results depend on the processing

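No paired analysis was possible because the labels name no pairing of the single control library with a COUPOE library. The number of genes called between genotypes moved with most settings. In CapEC 0 became 7 with DESeq2 size factors, 22 without a filter, 49 with DESeq2, 143 at resolution 0.6, 31 at resolution 1.6, 98 with doublets kept, 319 at no more than 5% mitochondrial UMIs, 301 when unnamed clusters joined their nearest list and 1347 by a 2-fold rule with no test. In PCV 57 became 176 without a filter, 27 with DESeq2, 12 at resolution 0.6, 158 at resolution 1.6, 99 with doublets kept, 87 without cells holding a Ptprc, Cd52 or Epcam UMI, 175 with the nearest list and 728 by the 2-fold rule. The joining by nearest list and the comparisons in the Colec12 cluster and CRP were chosen after seeing the data. Joined that way, the PCV class took in the whole Colec12 cluster (530, 1249 and 118 cells), and its Ltb change of 5.54 (edgeR adjusted p = 2.15e-06) includes the Colec12 change.

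Ltb in the Colec12 cluster lost its call with doublets kept (5.97, edgeR adjusted p = 0.0798) and kept it in 7 of 8 alternatives. Without COUPOE 1 its log2 change was 4.72 and without COUPOE 2 6.47, with no test. Members that separated HEC from CapEC numbered 2, against 5 at 1.5-fold, 1 at resolution 1.6, 2 without the control library and 6 without COUPOE 1. For LEC 1 became 3 at 1.5-fold and 2 by the mean over cells, with 1 without COUPOE 2 and 3 without COUPOE 1. For fibroblasts 2 became 4 at 1.5-fold. PCV against CapEC stayed at 0 when each library was left out. The median share of cells with a UMI went from 2.78% to 5.27% at 2000 UMIs.

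Among the alternative fits, the log2 changes that turned direction were not called. In CapEC they were Ltb (1.40 at resolution 1.6, 0.71 with the nearest list), Relb (-0.19 and -0.068), Nfkb2 (0.018 without a filter, 0.064 at 5% mitochondrial UMIs) and Map3k14 (0.52 and 0.39 at resolutions 0.6 and 1.6, 0.41 with doublets, 0.41 at 5% mitochondrial UMIs, 0.51 with the nearest list). In CRP they were Relb (0.36 at resolution 0.6, 0.14 with doublets), Map3k14 (0.084 with DESeq2, 0.089 at 5% mitochondrial UMIs) and Tnfrsf1a (0.70 and 0.087 at resolutions 0.6 and 1.6, 0.72 with doublets). Ratios of 1 COUPOE library to the control library are not in this list, and some differed in sign from the main fit. Map3k14 was -0.45 in COUPOE 2 against 1.07 in the Colec12 cluster, and 0.57 in COUPOE 2 against -0.07 in CRP. In COUPOE 1, Traf3 was 0.09 against -0.11 in PCV and Nfkb2 0.11 against -0.005 in CapEC. The cause was not tested. LEC and fibroblasts allowed no genotype result under any setting, and no library could be left out for fibroblasts, which come from 1 library.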
